A study of Mus musculus with 6 samples.

Results

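The Ifit family of the mouse comprised 6 genes of the 54532 listed in the deposited table: Ifit1, Ifit2, Ifit3, Ifit3b, Ifit1bl1 and Ifit1bl2. The members were taken by name, and the family was chosen by results already known from the same tumors, in which Ifit3 was higher in the AOM_CRE group. The values of the members between the groups are therefore given as a description. The tumors sequenced came from 3 Tmem173fl/fl mice (AOM_WT) and from 3 Tmem173fl/flLzym-Creert2 mice (AOM_CRE), all on the C57BL/6N background. Tmem173 encodes STING, the adaptor through which cytosolic DNA sensed by cGAS activates TBK1 and IRF3. All mice received the carcinogen azoxymethane (AOM), cycles of dextran sulfate sodium (DSS) in drinking water, which injures the colon, and tamoxifen after the last cycle, so that both groups shared the carcinogen, the colitis and the drug. In the AOM_CRE mice, Cre is expressed from the Lyz2 locus and acts upon tamoxifen, which restricts the deletion to myeloid cells such as macrophages and neutrophils. The AOM_WT mice carry the same floxed alleles without Cre. The age of these mice at sacrifice and the number of tumors pooled in a library are not given in the sources used here, so p-values measure the spread between these 6 libraries.

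Reads assigned to genes numbered 15329810 to 16533732 per tumor. Tmem173 had 1748, 2911 and 1705 counts in AOM_WT replicates 1, 2 and 3 and 2291, 2245 and 1953 counts in AOM_CRE replicates 1, 2 and 3, and these ranges overlapped, so whole-tumor Tmem173 did not tell the genotypes apart. Reads of Y-linked genes were found in AOM_WT replicate 1 and AOM_CRE replicates 1 and 2, and Xist reads in the other 3 tumors, so that sex was mixed in both groups. The epithelial markers Epcam, Vil1, Cdx2, Cdh1, Krt8, Krt18, Krt19 and Krt20 summed to between 11330 and 12510 CPM (counts scaled by the library size) in AOM_WT tumors and between 12030 and 13650 CPM in AOM_CRE tumors. AOM_CRE replicate 1 stood apart in genes that respond to interferon-gamma: among 19 such genes, the median ratio of its CPM to the mean of the other AOM_CRE tumors was 5.16, against 0.995 over all genes tested. In bulk tumor RNA, fewer cells of a type and less RNA per cell cannot be told apart.

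IFIT proteins are interferon-induced proteins built from tetratricopeptide repeats. They have no catalytic site and act by binding RNA and each other in the cytosol, where they keep viral RNA without the host's cap methylation from being translated. Type I and type III interferons switch their genes on through the transcription factor complex ISGF3, which contains IRF9 and binds the interferon-stimulated response element, while IRF3 activated downstream of STING or the RNA sensors can bind the same kind of element directly. Interferon-gamma acts mainly through gamma-activated sites.

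The 6 members lie next to each other on chromosome 19 of GRCm38, from 34550694 to 34650009, in the order Ifit2, Ifit3, Ifit1bl1, Ifit3b, Ifit1bl2, Ifit1. This stretch of 99316 bp holds exactly 6 protein-coding genes in the table. Ifit2, Ifit3, Ifit3b and Ifit1 are on the plus strand and Ifit1bl1 and Ifit1bl2 on the minus strand. Ifit1bl2 and Ifit1 are divergent neighbours with 127 bp between their annotated starts, whereas the other gaps ranged from 3647 bp to 7111 bp.

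To show what the ISGF3-type element looks like in this family, the stretches that hold it are printed 5′ to 3′ from the RefSeq promoter sequences (GRCm38.p6), which cover 250 bases before each start site. Capitals mark the element's core, TTTCNNTTTC, searched on both strands. The stretches of Ifit3 (chr19:34583353-34583436, plus strand) and Ifit3b (chr19:34607749-34607832, plus strand) were identical over all 84 bases, which is why they carry the same letters here. The stretch between Ifit1bl2 and Ifit1 (chr19:34640744-34640870, written on the plus strand) is the whole interval shared by these genes. The stretch of Ifit1bl1 (chr19:34602043-34602092, minus strand) holds a single core.
Ifit3: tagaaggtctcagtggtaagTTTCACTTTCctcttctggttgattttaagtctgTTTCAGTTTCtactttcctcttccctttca
Ifit3b: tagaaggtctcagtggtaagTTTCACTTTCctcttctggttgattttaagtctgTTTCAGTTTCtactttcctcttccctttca
Ifit1 and Ifit1bl2: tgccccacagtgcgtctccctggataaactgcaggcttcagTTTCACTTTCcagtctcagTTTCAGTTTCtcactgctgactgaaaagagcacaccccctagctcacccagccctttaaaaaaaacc
Ifit1bl1: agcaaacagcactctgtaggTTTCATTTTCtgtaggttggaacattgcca

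In 5 of 6 members the core was present upstream of a RefSeq start, against 3.46% of 27025 genes with a promoter entry. Counted by window, it was present in 2.98% of all 32851 promoter windows of this length. Ifit3, Ifit3b, Ifit1 and Ifit1bl2 had 2 cores each, a number reached by 0.18% of all windows. The letters of the cores were the same in these 4 genes, TTTCACTTTC followed by TTTCAGTTTC when read towards Ifit1, and the pair lay from -156 to -113 bases from the start of Ifit3, from -188 to -145 bases from that of Ifit3b and from -104 to -76 bases from that of Ifit1. Seen from Ifit1bl2, the same pair ran on the other strand from -70 to -42 bases. These positions count from the RefSeq start sites, which for Ifit1 is 34640889. The printed interval is bounded by the annotated start of Ifit1, 34640871, from which the pair lay at -86 to -58 bases. The windows of Ifit3 and Ifit3b were identical at 216 of 282 aligned positions (76.6%), and thus differed outside the printed stretch. Ifit1bl1 had TTTCATTTTC at -104 to -95 bases from its first start site and another match at -23 to -14 bases from its second. No core was found in either window of Ifit2, whose first window instead held TTCCTGGAA, a match to the gamma-activated site TTCNNNGAA, at -241 to -233 bases. Such a site occurred in 7.02% of all windows and in no other member. For comparison, the core was present in 11 of 30 ISGF3 target genes outside the family with a promoter entry (36.7%) and in 8 of 13 genes induced mainly by interferon-gamma (61.5%). The gamma-activated site was present in 4 of these 30 (13.3%) and 5 of these 13 (38.5%), against 8.13% of all genes with an entry. A match is only a description of the letters, and binding was not measured.

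**Figure D1:**
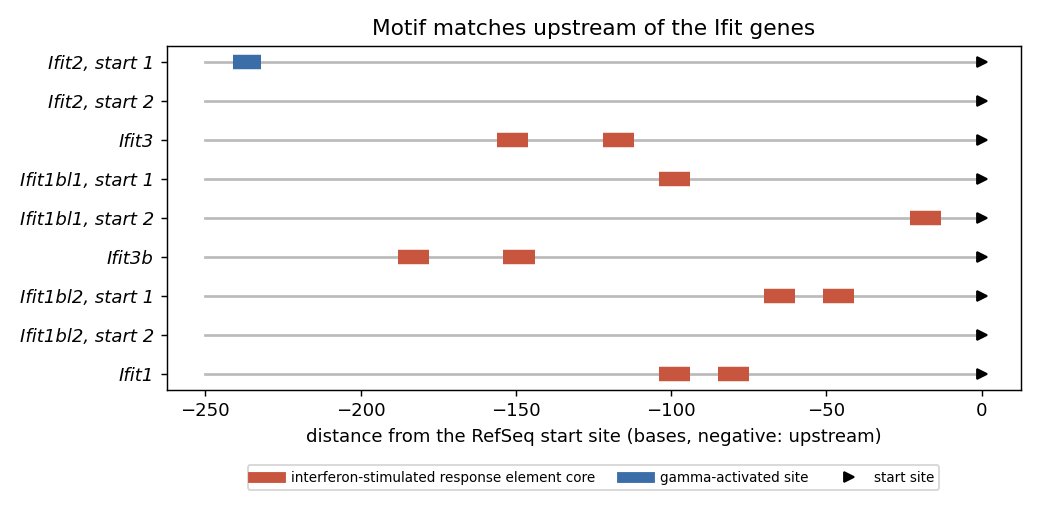
Positions of the searched motifs in the 250 bases upstream of each RefSeq start site of the Ifit genes; the horizontal axis is the distance from the start in bases and each line is a window, in chromosome order from top to bottom. Red boxes mark the interferon-stimulated response element core, present in pairs in Ifit3, Ifit3b, Ifit1 and the first window of Ifit1bl2 and alone in both windows of Ifit1bl1; the blue box marks the gamma-activated site of Ifit2.

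The members differ in how well reads can be told apart. Over their coding sequences, Ifit3 and Ifit3b were identical at 1198 of 1209 aligned bases (99.1%), Ifit1bl1 and Ifit1bl2 at 87.5% and Ifit1 at 74.4% with Ifit1bl1 and 73.8% with Ifit1bl2. All pairs that join Ifit2 or the Ifit3 genes to another branch were between 52.3% and 56.3% identical. Of all stretches of 100 bases in the Ifit3 transcript, 31.7% occurred unchanged in that of Ifit3b, and 27.4% in the reverse direction. The share was 3.29% for Ifit1, 2.91% for Ifit1bl2, 0.52% for Ifit1bl1 and 0% for Ifit2. Values of Ifit3 and Ifit3b are therefore uncertain as to which copy they belong to, since how reads matching both were counted is not stated.

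A gene was tested where its FPKM, the counts scaled by gene length and library size, averaged 0.5 or more. Of the 16426 genes tested, 349 (2.12%) passed both limits used by the study, which are a log2 fold change of 1 or more in either direction and p under 0.05 before adjustment. Higher levels in AOM_CRE tumors accounted for 207 of these (1.26%) and lower levels for 142 (0.864%). With Benjamini-Hochberg adjustment of edgeR's quasi-likelihood test, 0 genes (0%) had an adjusted p-value under 0.05, with 1008 genes (6.14%) under 0.05 before adjustment, and the smallest adjusted p-value was 0.742. DESeq2 gave 27 genes (0.164%) with an adjusted p-value under 0.05, among them Ifit3 and Ifit3b. All 6 members passed the filter, Ifit1bl2 just inside it with a mean of 0.50 FPKM. For AOM_CRE over AOM_WT, 6 of 6 members were above 0 on the log2 scale, as were 49.4% of all genes tested, and 4 of 6 passed both limits. The median log2 fold change was 1.49 for the members and -0.0042 for all genes tested. As the members were chosen with this contrast known, nothing follows from these counts.

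Ifit1, the member that recognizes the unmethylated cap of viral RNA, had 265, 271 and 58 counts in AOM_WT replicates 1, 2 and 3 and 832, 414 and 688 counts in AOM_CRE replicates 1, 2 and 3. All AOM_CRE tumors were above all AOM_WT tumors, and AOM_WT replicate 3 was far below the other controls, at 0.197 of their mean CPM. The mean was 12.9 ± 8.19 CPM (SD, n = 3) in AOM_WT and 40.8 ± 13.5 CPM (SD, n = 3) in AOM_CRE tumors, a log2 fold change of 1.66 (SE 0.56) or 3.16-fold. The lowest AOM_CRE tumor was 1.44 times the highest AOM_WT tumor. Without AOM_CRE replicate 1, the log2 fold change was 1.44 and no longer passed both limits (unadjusted p = 0.052 from edgeR).

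Ifit1bl1 and Ifit1bl2 are the Ifit1-like copies of the mouse, of which less is known. Ifit1bl1 was the most abundant member, with 3641, 2604 and 1694 counts in AOM_WT and 5665, 2900 and 4036 counts in AOM_CRE replicates 1, 2 and 3. The groups overlapped, as AOM_CRE replicate 2 lay below AOM_WT replicate 1, and the mean was 171 ± 67.6 CPM (SD, n = 3) in AOM_WT and 266 ± 87.8 CPM (SD, n = 3) in AOM_CRE tumors. The log2 fold change of Ifit1bl1 was 0.64 (SE 0.34), short of both limits. Ifit1bl2 had 30, 11 and 39 counts in AOM_WT and 32, 22 and 28 counts in AOM_CRE replicates 1, 2 and 3, with all AOM_CRE tumors inside the AOM_WT range. Its mean was 1.67 ± 0.84 CPM (SD, n = 3) against 1.73 ± 0.32 CPM (SD, n = 3), a log2 fold change of 0.043 (SE 0.47) whose sign turned when AOM_WT replicate 2 was left out (-0.31), when AOM_CRE replicate 1 was left out (-0.089) and with library totals in place of TMM (-0.0013). At 11 to 39 counts per tumor, it had the fewest counts of the family in every tumor but AOM_WT replicate 3, where Ifit3b had as few. Ifit1bl2 and Ifit1 share the printed interval with its pair of cores, and within each tumor the FPKM of Ifit1 was between 1.89 and 33.0 times that of Ifit1bl2.

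Ifit2, which restricts several RNA viruses in neurons and other cells, had 519, 560 and 443 counts in AOM_WT and 2241, 543 and 1086 counts in AOM_CRE replicates 1, 2 and 3. AOM_CRE replicate 1 was 2.74 times the mean of the other AOM_CRE tumors in CPM, and AOM_CRE replicate 2 lay within the AOM_WT range. The mean was 32.6 ± 5.47 CPM (SD, n = 3) in AOM_WT and 81.6 ± 54.7 CPM (SD, n = 3) in AOM_CRE tumors, so the AOM_CRE tumors varied more, with a coefficient of variation of 67.0% against 16.8%. The log2 fold change of Ifit2 was 1.33 (SE 0.45). It was 0.67 without AOM_CRE replicate 1 and 1.204 without AOM_WT replicate 3, and in neither case passed both limits.

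Ifit3, whose human counterpart binds IFIT1 and strengthens its hold on RNA, had 95, 76 and 54 counts in AOM_WT and 574, 178 and 247 counts in AOM_CRE replicates 1, 2 and 3. The groups did not overlap, and the lowest AOM_CRE tumor was 1.82 times the highest AOM_WT tumor. With 4.83 ± 1.48 CPM (SD, n = 3) in AOM_WT and 21.1 ± 13.3 CPM (SD, n = 3) in AOM_CRE tumors, Ifit3 had the largest log2 fold change of the family, 2.12 (SE 0.47) or 4.36-fold. Its near-identical copy Ifit3b had 82, 64 and 39 counts in AOM_WT and 375, 121 and 215 counts in AOM_CRE replicates 1, 2 and 3, again without overlap. The mean of Ifit3b was 3.98 ± 1.52 CPM (SD, n = 3) in AOM_WT and 15 ± 8.11 CPM (SD, n = 3) in AOM_CRE tumors, a log2 fold change of 1.91 (SE 0.47). Without AOM_CRE replicate 1, the values were 1.48 for Ifit3 and 1.42 for Ifit3b, and both still passed both limits. The adjusted p-value was 0.742 for both genes with edgeR, while DESeq2 gave 0.0052 for Ifit3 and 0.028 for Ifit3b. As the family was chosen with this contrast known, these p-values are a description. The copies can share reads, so they do not count as separate results.

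Ifit3 took between 53.5% and 60.5% of the counts that fell on either copy. The 95% Wilson interval was 57.3% to 63.5% in AOM_CRE replicate 1, the tumor with most counts on them, and 47.9% to 67.6% in AOM_WT replicate 3, the tumor with fewest, and covers counting error only. Per length, the FPKM of Ifit3 was 1.32 to 1.75 times that of Ifit3b, higher in 6 of 6 tumors. The summed counts of both copies ranged from 93 to 949 meanwhile, and reads that match both cannot be assigned from this table.

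**Figure D2:**
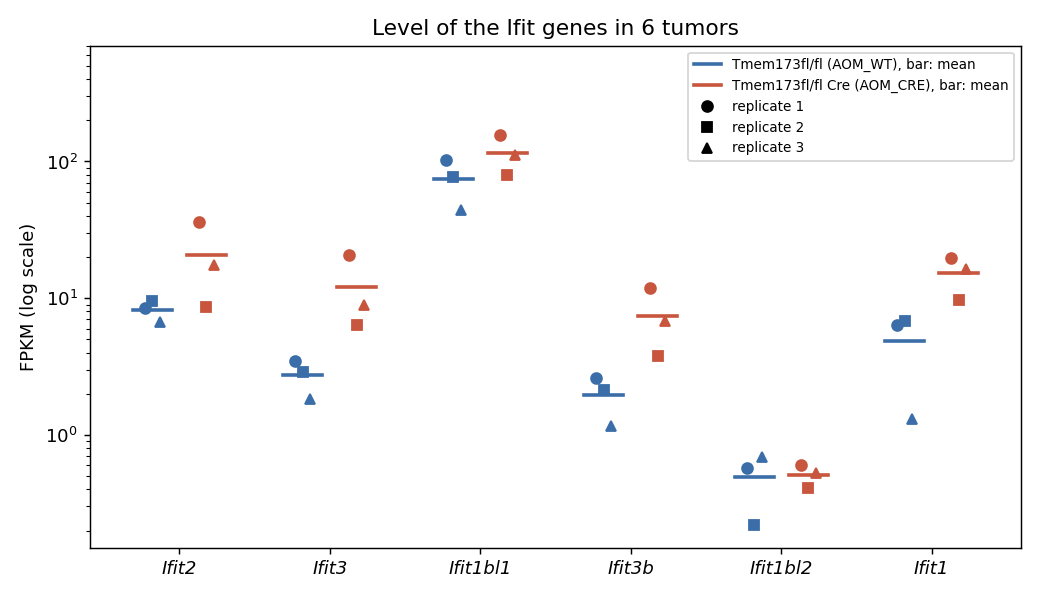
FPKM of each Ifit gene in each tumor on a log axis, in chromosome order, with blue symbols for AOM_WT, red symbols for AOM_CRE, circles, squares and triangles for replicates 1, 2 and 3, and a bar for each group mean. The groups are apart for Ifit3, Ifit3b and Ifit1, and the red circle of AOM_CRE replicate 1 is the highest point in every gene but Ifit1bl2.

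The groups did not overlap in 3 of 6 members, Ifit1, Ifit3 and Ifit3b, whereas 6.03% of all genes tested were higher in every AOM_CRE than in every AOM_WT tumor and 6.47% were lower. AOM_CRE replicate 1 had the highest CPM in 5 of 6 members and AOM_WT replicate 3 the lowest in 5 of 6, with Ifit1bl2 as the exception in both. The summed FPKM of the family was 124, 98.1 and 56.1 in AOM_WT and 246, 109 and 163 in AOM_CRE replicates 1, 2 and 3, and these sums overlapped because Ifit1bl1 dominated them. Without Ifit1bl1, the sums were 21.5, 21.6 and 11.7 in AOM_WT and 88.8, 29.0 and 50.2 in AOM_CRE tumors, with no overlap. Within the tumors with Xist reads, the ratio of the mean CPM in AOM_CRE to that in AOM_WT was 4.07 for Ifit1, 2.16 for Ifit2, 3.79 for Ifit3 and 4.14 for Ifit3b. Within those with Y-linked reads it was 2.28, 2.60, 3.84 and 2.94. Each ratio rests on 3 tumors, with a single AOM_CRE tumor among those with Xist reads and a single AOM_WT tumor among those with Y-linked reads. Ifit2 was at 34.2 CPM in AOM_CRE replicate 2 and 33.7 CPM in AOM_WT replicate 1, both with Y-linked reads. These ratios are therefore given as a description only. For Ifit1bl1 the ratios were 1.87 and 1.14, and for Ifit1bl2 they were 1.16 and 0.873.

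**Figure D3:**
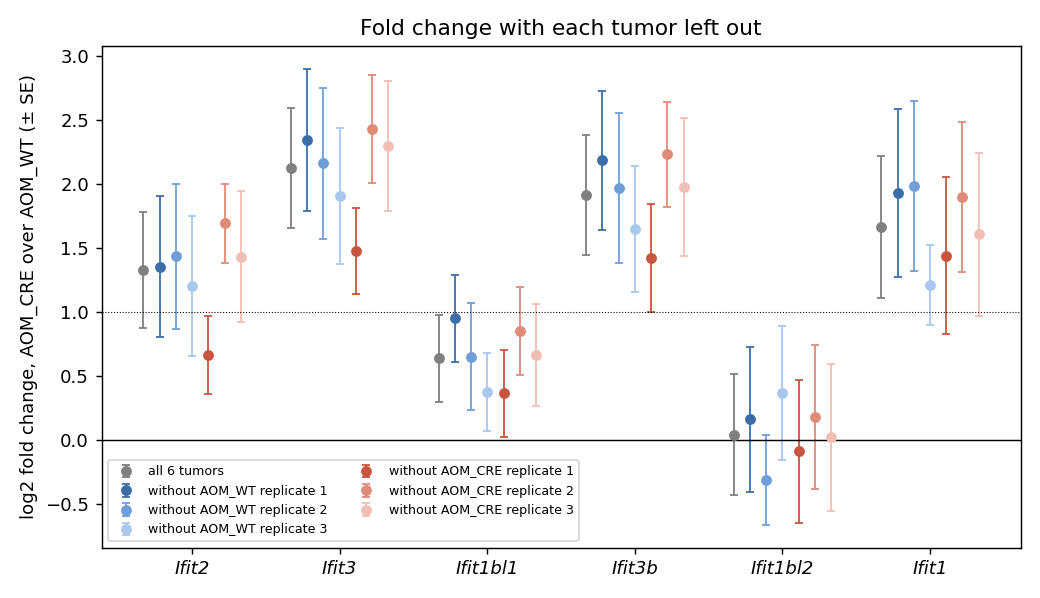
Log2 fold change of each Ifit gene, AOM_CRE over AOM_WT, with all 6 tumors (grey) and with each tumor left out (blue shades for AOM_WT, red shades for AOM_CRE); bars are ± SE and the dotted line marks 1. Ifit2 falls to 0.67 without AOM_CRE replicate 1, Ifit3 and Ifit3b stay above 1 in every case, and Ifit1bl2 scatters about 0 between -0.31 and 0.37.

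Levels of different genes can be compared only per length. On the FPKM scale and over all 6 tumors, Ifit1bl1 came first with a mean of 95.4 ± 38.2 (SD, n = 6), which placed it at the 97.2 percentile of all genes tested. It was followed by Ifit2 with 14.5 ± 11.2, Ifit1 with 10.1 ± 6.85, Ifit3 with 7.38 ± 7.03, Ifit3b with 4.72 ± 3.98 and Ifit1bl2 with 0.50 ± 0.17. Ifit1bl1 exceeded Ifit2 in 6 of 6 tumors, by 4.36 to 12.1 times, and Ifit3b exceeded Ifit1bl2 in 6 of 6. Ifit2 exceeded Ifit1 in 5 of 6 tumors and Ifit1 exceeded Ifit3 in 4 of 6, so these neighbours in the order were not separated beyond the spread between tumors.

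The make-up of the family within a tumor was described by the share of each member in the summed FPKM. Ifit1bl1 made up 82.6%, 77.97% and 79.1% in AOM_WT replicates 1, 2 and 3 and 63.9%, 73.4% and 69.1% in AOM_CRE replicates 1, 2 and 3, and was lower in every AOM_CRE tumor. Ifit3 made up 2.81%, 2.97% and 3.29% in AOM_WT and 8.43%, 5.87% and 5.51% in AOM_CRE tumors, so that its share was narrow among controls and higher in every AOM_CRE tumor. The share of Ifit3b went from 2.12% ± 0.054 (SD, n = 3) to 4.16% ± 0.66 (SD, n = 3) and that of Ifit1 from 4.81% ± 2.33 (SD, n = 3) to 9.03% ± 1.03 (SD, n = 3), in both cases without overlap. Ifit2 had 9.51% ± 2.59 (SD, n = 3) in AOM_WT and 11.1% ± 3.35 (SD, n = 3) in AOM_CRE tumors, with overlap, and Ifit1bl2 0.64% ± 0.53 and 0.31% ± 0.067 (SD, n = 3 each). In relation to Ifit2, Ifit3 stood at 0.331 ± 0.072 (SD, n = 3) in AOM_WT and 0.609 ± 0.116 (SD, n = 3) in AOM_CRE tumors by the ratio of FPKM. Shares within a tumor depend on each other, so a lower share need not be a lower level. The mean FPKM of Ifit1bl1 was 74.5 in AOM_WT and 116 in AOM_CRE tumors. The same contrast chose the members, so no test is given for these shares.

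**Figure D4:**
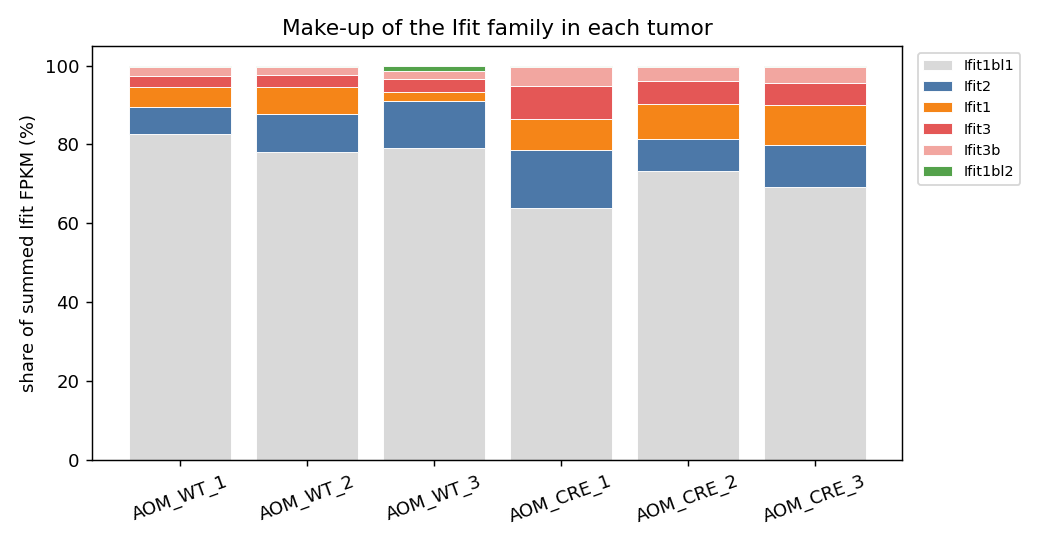
Share of each Ifit gene in the summed FPKM of the family in each tumor, in percent. The grey segment of Ifit1bl1 takes 77.97% to 82.6% in the 3 AOM_WT tumors and 63.9% to 73.4% in the 3 AOM_CRE tumors, and the Ifit1bl2 segment, at most 1.23%, is visible only in AOM_WT replicate 3.

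The genes next to the cluster were compared to see how far the difference extends along the chromosome. On the side of Ifit2, the nearest 3 protein-coding genes are Lipa, a lysosomal acid lipase, Ch25h, the interferon-inducible cholesterol 25-hydroxylase, and Fas, a death receptor. On the side of Ifit1 they are Slc16a12, a transporter, Pank1, a pantothenate kinase, and Kif20b, a mitotic kinesin. Lipa, which ends 23220 bp before Ifit2, had 745, 819 and 862 counts in AOM_WT and 677, 976 and 757 counts in AOM_CRE replicates 1, 2 and 3, with a log2 fold change of -0.022 (SE 0.16). Slc16a12, which begins 18394 bp after Ifit1, had a log2 fold change of -0.33 (SE 0.30). The 6 neighbours ranged from -0.33 to 0.13, the groups overlapped in each, and none passed both limits. Ch25h, at 24 to 42 counts in every tumor, had a log2 fold change of 0.13 (SE 0.35).

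**Figure D5:**
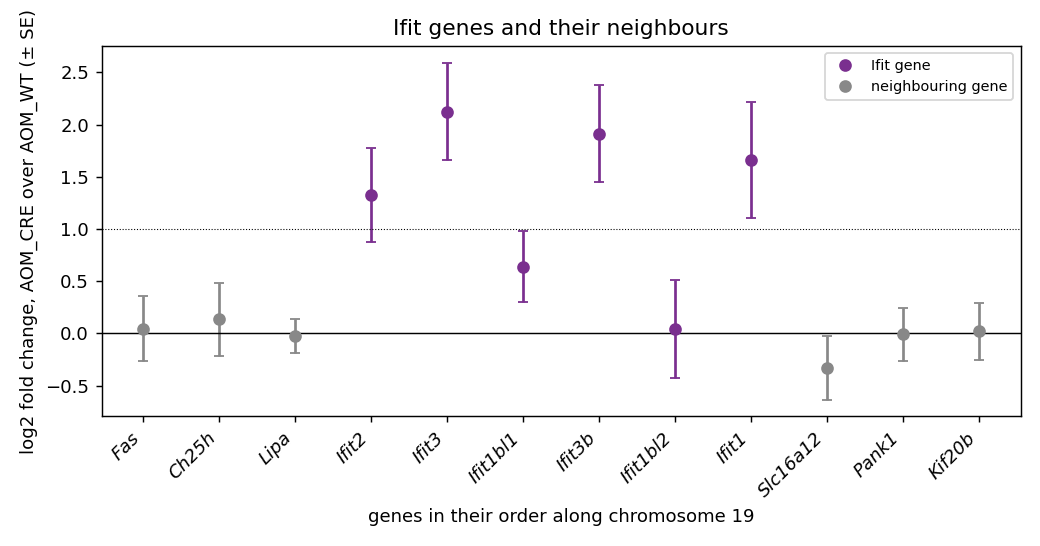
Log2 fold change ± SE, AOM_CRE over AOM_WT, for the Ifit genes (purple) and the nearest 3 protein-coding genes on each side (grey), in chromosome order with even spacing; the dotted line marks 1. Ifit2, Ifit3, Ifit3b and Ifit1 lie above 1, with Ifit1bl1 and Ifit1bl2 between them at 0.64 and 0.043, and the neighbours lie between -0.33 and 0.13.

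Interferon ligands were hardly detected. Of 19 type I and type III interferon genes, 0 passed the filter and 14 had no count in any tumor. Ifnb1, the interferon made first on STING activation, had 1 count each in AOM_CRE replicates 1 and 2 and 0 elsewhere, Ifnl2 had 1 count in AOM_CRE replicate 1, Ifna7 had 1 and 2 counts in AOM_WT replicates 2 and 3, and Ifna13 had 3 counts in AOM_WT replicate 3. Ifnk, an interferon of epithelia, had 4, 2 and 0 counts in AOM_WT and 0, 2 and 0 counts in AOM_CRE tumors. At or about the floor of 3 counts, no difference was detectable at this depth. Ifng, which encodes interferon-gamma, was not tested either and had 0, 0 and 2 counts in AOM_WT and 50, 0 and 3 counts in AOM_CRE replicates 1, 2 and 3, so that its reads came almost wholly from AOM_CRE replicate 1, the tumor with the highest level of 5 of the 6 Ifit genes.

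None of the 6 interferon receptor genes passed both limits. The log2 fold changes were -0.16 (SE 0.15) for Ifnar1 and 0.16 (SE 0.21) for Ifnar2, the chains of the type I receptor, 0.0030 (SE 0.22) for Ifngr1 and -0.13 (SE 0.16) for Ifngr2, the chains of the interferon-gamma receptor, and -0.046 (SE 0.18) for Ifnlr1 and 0.26 (SE 0.17) for Il10rb, those of the type III receptor. The median was -0.021.

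Among 11 signal transducers, 9 had a log2 fold change above 0, as did 49.4% of all genes tested, and 0 passed both limits. Their median was 0.47. Irf9, the DNA-binding part of ISGF3, had 84.1, 71.3 and 65.5 CPM in AOM_WT and 118, 89.5 and 97.5 CPM in AOM_CRE replicates 1, 2 and 3, without overlap but with a log2 fold change of only 0.47 (SE 0.15). Irf7, which amplifies the interferon response, had 0.95 (SE 0.32) and Stat2, another part of ISGF3, 0.67 (SE 0.29), both with overlapping groups. Stat2 had 2210 counts in AOM_CRE replicate 1, against 989 and 1259 in AOM_CRE replicates 2 and 3 and 800 to 1059 in the AOM_WT tumors.

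Of 11 sensors and adaptors, 2 passed both limits, both higher in AOM_CRE tumors, against 1.26% of all genes in this direction. Dhx58, which encodes the RNA sensor LGP2, had 162, 115 and 129 counts in AOM_WT and 417, 187 and 253 counts in AOM_CRE tumors, and its log2 fold change was 1.06 (SE 0.32). Zbp1, a sensor of Z-form nucleic acid, had 1.39 (SE 0.57) with overlapping groups. Ifih1, which encodes MDA5, and Ddx58, which encodes RIG-I, had 0.33 (SE 0.15) and 0.29 (SE 0.15), and Ikbke, a kinase of IRF3, had 0.36 (SE 0.14). Among 8 tested negative regulators 1 passed, Usp18, which blocks the type I receptor and also stands among the ISGF3 targets, while Trex1 was listed at 0 in every tumor.

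ISGF3 target genes outside the family were the closest group for comparison. Of 40 listed, 37 were tested and 37 had a log2 fold change above 0, as did 49.4% of all genes tested. Both limits were passed by 15, against 1.26% of all genes in this direction, and the median was 0.83. Their groups did not overlap in 15, against 6.03% of all genes in this direction. Oas3, an oligoadenylate synthetase that activates RNase L, had 193, 153 and 63 counts in AOM_WT and 784, 263 and 447 counts in AOM_CRE tumors, a log2 fold change of 1.83 (SE 0.51) that lay within the range of the Ifit genes. Ifi44, a cytosolic interferon-induced protein, had 1.93 (SE 0.55) and Oas2 1.64 (SE 0.49). Usp18 had 1.013 (SE 0.26), Trim30a 1.02 (SE 0.27) and Xaf1, a pro-apoptotic gene, 1.23 (SE 0.37). The highest tumor was AOM_CRE replicate 1 in 33 of 37 of these genes. Without it, the median was 0.43 and 3 of the 37 passed both limits. In the same fit, the median of the Ifit family was 1.04 and 2 of its 6 members passed. Over all 16426 genes tested, the median was -0.017, 260 passed in either direction and 0.779% passed in the higher direction. The list and the family were both chosen with results of these tumors known, and neither is independent evidence of a direction.

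Genes induced mainly by interferon-gamma had a larger but more uneven difference. Of 19 tested, 19 had a log2 fold change above 0, as did 49.4% of all genes tested. Both limits were passed by 14, against 1.26% of all genes in this direction, and the median was 1.70. The groups were without overlap in 2, Gbp6 and Irgm2, against 6.03% of all genes in this direction. This list too was composed with results of these tumors known. Irgm2, an immunity-related GTPase, had 769, 617 and 673 counts in AOM_WT and 3137, 1324 and 1815 counts in AOM_CRE tumors, and its log2 fold change was 1.59 (SE 0.30). Cxcl9, a chemokine for T cells, had 213, 116 and 171 counts in AOM_WT and 3581, 178 and 306 counts in AOM_CRE tumors, so that its log2 fold change of 3.01 (SE 1.06) came from AOM_CRE replicate 1. That tumor was the highest in 19 of 19 genes. Its median ratio to the mean of the other AOM_CRE tumors was 5.16 for these genes, 1.92 for the Ifit family and 1.90 for the ISGF3 targets. Without it, the median of the interferon-gamma genes was 0.43 and 1 passed both limits, against 260 of all 16426 genes. With sex as a covariate 3 passed, against 211 of all genes.

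Markers of other cell types were read in the same tumors. The summed CPM of 10 macrophage and monocyte markers was 616 to 918 in AOM_WT and 593 to 977 in AOM_CRE tumors. Of the 10, 7 had a log2 fold change above 0, as did 49.4% of all genes tested. Summed CPM of 7 neutrophil markers was 100 to 234 in AOM_WT and 134 to 411 in AOM_CRE tumors, with 5 of 7 highest in AOM_CRE replicate 1, where their median was 2.52 times the mean of the other AOM_CRE tumors. Of 12 markers of T cells and NK cells, 10 were tested and 10 were above 0, against 49.4% of all genes tested. Both limits were passed by 1, against 1.26% of all genes in this direction. It was Gzmb, which encodes the cytotoxic protease granzyme B, with a log2 fold change of 1.55. The summed CPM of the 12 markers was 9.67 to 30.8 in AOM_WT and 24.1 to 43.6 in AOM_CRE tumors, and 7 were highest in AOM_CRE replicate 1. Dendritic cell markers summed to 19.5 to 35.8 CPM in AOM_WT and 29.5 to 43.6 CPM in AOM_CRE tumors, with 2 of 7 tested. Of 5 markers of plasmacytoid dendritic cells, a main source of type I interferon, only Klk1 was tested. It made up most of their summed CPM of 26.3 to 148 in AOM_WT and 98.0 to 147 in AOM_CRE tumors, so the sum is not a level of that cell type. Siglech, a defining marker, had 8 to 13 counts in AOM_WT and 12 to 29 counts in AOM_CRE tumors, and Cox6a2 had at most 3 counts in every tumor. B cell markers went from 2.64 to 116 CPM in AOM_WT and from 5.81 to 60.2 CPM in AOM_CRE tumors, with 0 of 5 highest in AOM_CRE replicate 1, and fibroblast markers from 1174 to 1550 and from 1230 to 1823 CPM. Endothelial markers summed to 56.4 to 60.9 CPM in AOM_WT and 64.3 to 78.2 CPM in AOM_CRE tumors, and smooth muscle markers to 255 to 366 and 194 to 329 CPM. Des, which encodes the muscle filament desmin, was the marker that passed both limits in the lower direction, with a log2 fold change of -1.01 and overlapping groups. Both limits were passed in this direction by 0.864% of all genes tested. The part of these cells in the level of the Ifit genes was not tested.

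The genes whose pattern over the 6 tumors was most like the family's were found by Pearson r between their log2(CPM + 1) and the mean log2(CPM + 1) of the members. That mean was 4.04, 3.79 and 3.20 in AOM_WT and 5.47, 4.23 and 4.84 in AOM_CRE replicates 1, 2 and 3. The 10 highest values of r, from 0.981 to 0.998, belonged to Gm49172, Smim3, Gm15501, Nudt3, Oas3, Thyn1, Phlda1, Fyb, Irf9 and Rsad2. Among them Oas3 (r = 0.992), Irf9 (r = 0.982) and Rsad2 (r = 0.981), which encodes the antiviral enzyme viperin, are on the interferon lists. Rsad2 had 90, 92 and 34 counts in AOM_WT and 321, 104 and 206 counts in AOM_CRE tumors, and like Ifit1 was lowest in AOM_WT replicate 3. The other 7 had log2 fold changes of 0.27 to 0.58, and r takes no account of size. These values of r are the highest among 16426 genes over only 6 tumors, include the difference between the groups, and are given as a description.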

How the data were processed

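Total RNA was extracted from tumors with TRIzol and lithium chloride, and libraries of polyA RNA were made with a NEBNext Ultra kit. According to the submitters' processing notes, reads were handled with CASAVA 1.8, fastp, HISAT2 2.0.5, featureCounts 1.5.0-p3 and DESeq2 1.20.0 on GRCm38. The treatment of strand and of reads with several matches is not given in the sources used here. The authors deposited read counts per gene and FPKM values made from these counts. The table also holds the authors' own fold changes and p-values, which were not used.

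The members and all gene lists were chosen with earlier results of these data known. Genes whose FPKM averaged 0.5 or more entered the test, on their counts, with edgeR 4.0.16 in R 4.3.3 (TMM, quasi-likelihood test, group only, all 6 tumors), with Benjamini-Hochberg adjustment over the 16426 genes. SE was taken as the size of the log2 fold change over the root of the F statistic. CPM used TMM library sizes. Shares of the summed FPKM were compared by an exact permutation test over tumors, which cannot go below 0.1 with 3 against 3, and are given without it because the contrast chose the members. The fit was repeated without a filter, with a mean FPKM of 1 as the filter, with median-of-ratios scaling, with library totals without the 20 highest genes, with DESeq2 1.42.0, with limma 3.58.1 on log2(FPKM + 1) and log2(FPKM + 0.1), with sex as a covariate, with a block for the replicate number and without each tumor in turn. Scripts were tested on simulated counts of 16425 genes with 200 changed for this comparison: edgeR called 120 genes, 11 of them unchanged, and recovered 26% of changes of size 1 and 83% of changes of size 2 on the log2 scale. DESeq2 called 202, of which 49 were unchanged. Both tools were scored in this way on p-values after adjustment, not on both limits. With edgeR, 247 unchanged genes of the simulation passed both limits, and in the tumors 349 genes passed them in either direction. Passing both limits therefore does not by itself tell a changed gene from an unchanged one.

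The genes named are the members, the 3 nearest protein-coding genes on each side, up to 6 genes of each interferon list with the lowest p-values, ligands and receptors with any count, Tmem173 and the 10 genes most like the family mean. Cell type markers, Trex1 and Gm10020 were named outside this rule, the markers that passed both limits or had few counts after their values were seen. The values of 1 listed gene are not reported here. Motifs were searched in RefSeq promoter windows of GRCm38.p6, all 6 members having an entry, and transcripts of the mouse GENCODE release M21 were compared with Biopython 1.88 under Python 3.11.15. Wilson intervals came from scipy 1.17.1. Depth ranged from 15329810 to 16533732 counts per tumor, and a floor of 3 counts covers counting error only.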

Additional observations from a re-analysis of the deposited data

How the results depend on the processing

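Ifit3 and Ifit3b kept their direction and stayed past both limits in all 15 alternatives, with log2 fold changes of 1.48 to 2.43 and 1.42 to 2.23. Ifit1 ranged from 1.21 to 1.98 and missed the limit on p without AOM_CRE replicate 1 only. Ifit2 ranged from 0.67 to 1.69 and missed a limit in 4 alternatives, both limma fits (1.03 and 1.10) and without AOM_WT replicate 3 (1.204) or AOM_CRE replicate 1 (0.67). Ifit1bl1 stayed between 0.36 and 0.95. Ifit1bl2 ranged from -0.31 to 0.37 when each tumor was left out, was -0.0013 with library totals and was not tested at a mean FPKM of at least 1. Library totals moved the median of all genes to -0.031. Outside DESeq2, the smallest adjusted p-value of a member was 0.131, for Ifit3 without a filter, and DESeq2 gave 0.200 for Ifit1 and 0.273 for Ifit2.

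The number of genes past both limits was 872 without a filter, 136 with limma on log2(FPKM + 1), 211 with sex as a covariate and 218 to 636 when each tumor was left out, lowest without AOM_WT replicate 3 and highest without AOM_WT replicate 1. Adjusted p-values were under 0.05 for 6 genes without a filter, 27 with DESeq2 and 0 to 1 with a tumor left out, the 1 gene being Gm10020 without AOM_CRE replicate 1. With a tumor left out, 2 to 4 Ifit genes, 3 to 20 ISGF3 targets and 1 to 18 interferon-gamma genes passed both limits, the lowest in each case without AOM_CRE replicate 1. Without AOM_WT replicate 2 or AOM_WT replicate 3, 7 ISGF3 targets and 2 interferon-gamma genes passed, against 314 and 218 of all genes. The ISGF3 targets numbered 6 with limma on log2(FPKM + 1) and 9 on log2(FPKM + 0.1), and the interferon-gamma genes 1 and 2, and 3 with sex as a covariate. Of all genes, 290 passed with limma on log2(FPKM + 0.1). The list counts under these alternatives were added after seeing the data. The cause of these shifts was not tested.

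With the replicate number as a block, the log2 fold changes were 1.85 for Ifit1, 1.12 for Ifit2, 2.001 for Ifit3, 1.85 for Ifit3b, 0.67 for Ifit1bl1 and 0.15 for Ifit1bl2, 4 members and 377 genes passed both limits, and 0 genes had an adjusted p-value under 0.05. Measured from their group means, tumors with the same number correlated at 0.315, 0.0085 and 0.154 for numbers 1, 2 and 3. AOM_WT replicates 1 and 3 correlated best with the AOM_CRE tumor of their own number, and AOM_WT replicate 2 with AOM_CRE replicate 3 (0.223). These values do not settle whether tumors of the same number were paired, and the main fit used no block.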

Other observations

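Ifi44l, an interferon-induced gene named here after its values were seen, had 35 counts in AOM_CRE replicate 2 and 0 counts in each of the other 5 tumors, whereas its relative Ifi44 had 402, 163 and 179 counts in AOM_CRE replicates 1, 2 and 3 and 96, 69 and 25 counts in AOM_WT replicates 1, 2 and 3. AOM_CRE replicate 2, the tumor with the lowest level of Ifit1, Ifit2, Ifit3, Ifit3b and Ifit1bl1 among the AOM_CRE tumors, was therefore the only tumor with Ifi44l reads.

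AOM_WT replicate 3 was low in some interferon-induced genes and not in others. Ifit1 had 58 counts there against 265 and 271 in the other AOM_WT tumors, Isg15, a ubiquitin-like modifier, had 22 against 205 and 61, and Oas3 had 63 against 193 and 153. In the same tumor Usp18 had 344 counts against 286 and 229, Ifit1bl2 39 against 30 and 11, and Dhx58 129 against 162 and 115. Isg15 and Ifit1bl2 were singled out for this after their values were seen.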
